A study of Arabidopsis thaliana with 12 samples.

Results

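The mitochondrial genome of Arabidopsis thaliana is represented in the deposited count table by 146 genes, whose identifiers start with ATMG, of 33602 genes in all. They were taken by that identifier and sorted by their deposited symbols. The respiratory chain and ATP synthase had 23 genes, cytochrome c maturation 5, ribosomal proteins 7, rRNA 3 and tRNA 21, and the maturase gene MATR stood alone. The remaining 86 carried an ORF symbol, the name given to open reading frames that were predicted from the sequence. The samples compared were 3 total RNA libraries of the mutant tfIIfα2 and 3 of its wild type, titled WTCol0. Seedlings were kept at 4 °C for 3 days, then grown for 6 days at about 21 °C with 16 h of light and 8 h of dark on medium that held 1% sucrose. Their aerial parts were harvested, and no treatment was applied. The mutant carries an allele of the gene for TFIIFα, the larger subunit of a general initiation factor of RNA polymerase II, and the labels do not give the kind of lesion. The libraries were made with a stranded total RNA kit that depletes plant ribosomal RNA. Nothing in the labels tells whether replicates were grown apart, so the p-values speak for these samples' own spread, which may be technical.

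Plant mitochondria keep a small genome that encodes core subunits of the respiratory complexes, some ribosomal proteins, rRNAs, a set of tRNAs and proteins that attach haem to cytochrome c. RNA polymerase II does not transcribe it. Phage-type polymerases encoded in the nucleus do, from many loosely defined start sites. Transcript levels are then shaped by splicing of group II introns, trimming of ends, editing of C to U and decay, all of which depend on nuclear-encoded proteins, including many of the PPR family. The genes nad1, nad2 and nad5, which encode membrane subunits of complex I, lie in separate pieces whose transcripts are joined by trans-splicing. Many of the ORF genes have no known function.

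The 6 libraries held 33292996 to 37456773 counts, of which 57.3% to 62.5% fell on plastid genes. RAP74 (AT4G12610), the gene that encodes TFIIFα, had 4.84, 6.03 and 5.78 CPM (counts scaled to a library of fixed size, with sizes adjusted by the TMM method) in tfIIfα2, against 8.06, 7.58 and 8.06 CPM in wild type. The log2 fold change was -0.52 ± 0.11 SE (adjusted p = 0.0168, edgeR with the replicate number as a block). The adjusted p was 0.0659 without the block, 0.144 without replicate 1 of each group and 0.0852 with DESeq2. All 5 leaf markers were abundant, and their summed level of 12710 to 21680 CPM in tfIIfα2 overlapped that of 12610 to 21630 CPM in wild type. The 7 root markers, which aerial parts should lack, summed to 61, 51 and 62 counts in tfIIfα2, against 22, 23 and 9 counts in wild type. Only CASP1, a gene of the root endodermis, was abundant enough to test, and it was higher in tfIIfα2 (log2 fold change 2.09 ± 0.60 SE, adjusted p = 0.0434, edgeR). It had 22, 25 and 44 counts in tfIIfα2, against 2, 19 and 2 counts in wild type, and its adjusted p was 0.174 without the block. CASP2 had 7, 18 and 12 counts in tfIIfα2, against 2, 3 and 1 counts in wild type, so its groups were apart as well. LRX1, a root hair gene, had 8 counts in replicate 1 of tfIIfα2 and 1 in replicate 1 of wild type. It was at 0 in replicates 2 and 3 of both groups. The counts of COBL9, EXPA7, EXPA18 and IRT1 overlapped between the groups, with at most 10 per library. The part that root tissue plays in the results below was not tested.

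The share of all counts that fell on mitochondrial genes overlapped between the genotypes, and on the TMM-adjusted library sizes it was slightly higher in tfIIfα2. They received 502989, 424019 and 434893 counts in tfIIfα2, against 460407, 371383 and 422314 counts in wild type. As a share of all counts this was 1.34%, 1.25% and 1.29% in tfIIfα2 and 1.31%, 1.10% and 1.27% in wild type. The means were 1.29% ± 0.0453 in tfIIfα2 and 1.23% ± 0.11 in wild type (SD, n = 3 each). Within the 3 pairs of libraries with the same number the log2 ratio of the shares was 0.03, 0.18 and 0.02, with a mean of 0.08 and an SD of 0.09. Over the TMM-adjusted library sizes, on which the all-counts tests rest, the log2 of the share was -6.264, -6.223 and -6.161 in tfIIfα2, against -6.434, -6.518 and -6.266 in wild type. On this scale the groups just missed each other, with log2 ratios of 0.17, 0.30 and 0.11 in the pairs and a mean of 0.19. In bulk samples a different number of cells of a type and a different amount of RNA per cell cannot be told apart.

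The genes were therefore compared on 2 scales. On the all-counts scale, library sizes came from all genes with TMM factors. On the mitochondrial scale, the library size was the sum of the ATMG counts, which shows how mitochondrial RNA is divided among its genes. The median log2 fold change of all 18863 tested genes was 0 on the first scale and -0.19 on the second, and the mitochondrial genes are read against these medians. Of the 146 genes, 109 passed the filter on low counts. The 37 that did not were 28 ORF genes, 8 tRNA genes and 1 rRNA gene, RRN5. They had a mean of at most 9.2 counts per library and together 0.04% of the ATMG counts, and the tRNA gene TRNS.3 had 0 counts in every library.

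The median log2 fold change over the mitochondrial genes was 0.19 on the all-counts scale, and 18 of the 109 tested were higher in tfIIfα2 (16.5%), against 9.56% of all tested genes (adjusted p below the threshold of 0.05, edgeR's quasi-likelihood test with the replicate number as a block, Benjamini-Hochberg over all tested genes). None was lower, against 9.18% of all tested genes, and 29 had an unadjusted p under 0.05. The rises were small, with log2 fold changes of 0.37 to 0.95, or 1.29-fold to 1.93-fold. On the mitochondrial scale the median was 0.00, 6 genes were higher, against 3.89% of all tested genes, and 2 were lower, against 22.8%. These 6 were also among the 18. The groups did not overlap in CPM for 36 genes that were higher and 3 that were lower in tfIIfα2, against 13.1% and 15.6% of all tested genes. On the mitochondrial scale this held for 14 higher and 15 lower, against 4.71% and 28.8%. Dividing by the ATMG sum holds the mitochondrial median near 0.00, while the median of all tested genes is -0.19. The shares of all tested genes on this scale are thus partly set by the scale itself, and few lower mitochondrial genes beside them is no separate result.

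These calls depended on the block. Without it 2 genes, ORF117 and ORF145C, were higher on the all-counts scale, against 1.48% of all tested genes, and the other 16 had adjusted p from 0.0506 to 0.184 (edgeR). No gene passed without the block on the mitochondrial scale, against 6.09% of all tested genes in either direction, though 13 had an unadjusted p under 0.05. The median over the mitochondrial genes moved with the library size, but the median over all tested genes moved with it by about the same amount. With total counts and no TMM factor, the median over all tested genes was -0.11 and that of the mitochondrial genes 0.07. In that fit 13 of the 18 genes were higher, and RPL16, NAD2A, NAD4L, TRNS.2 and TRNS.4 did not pass (adjusted p from 0.0541 to 0.094). NAD1A at -0.30 ± 0.08 and ORF199 at -0.36 ± 0.10 (log2 fold change ± SE) were lower. With DESeq2 and the block 14 of the 18 passed, all but TRNS.2, TRNS.4, TRNC and ORF161.

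**Figure D1:**
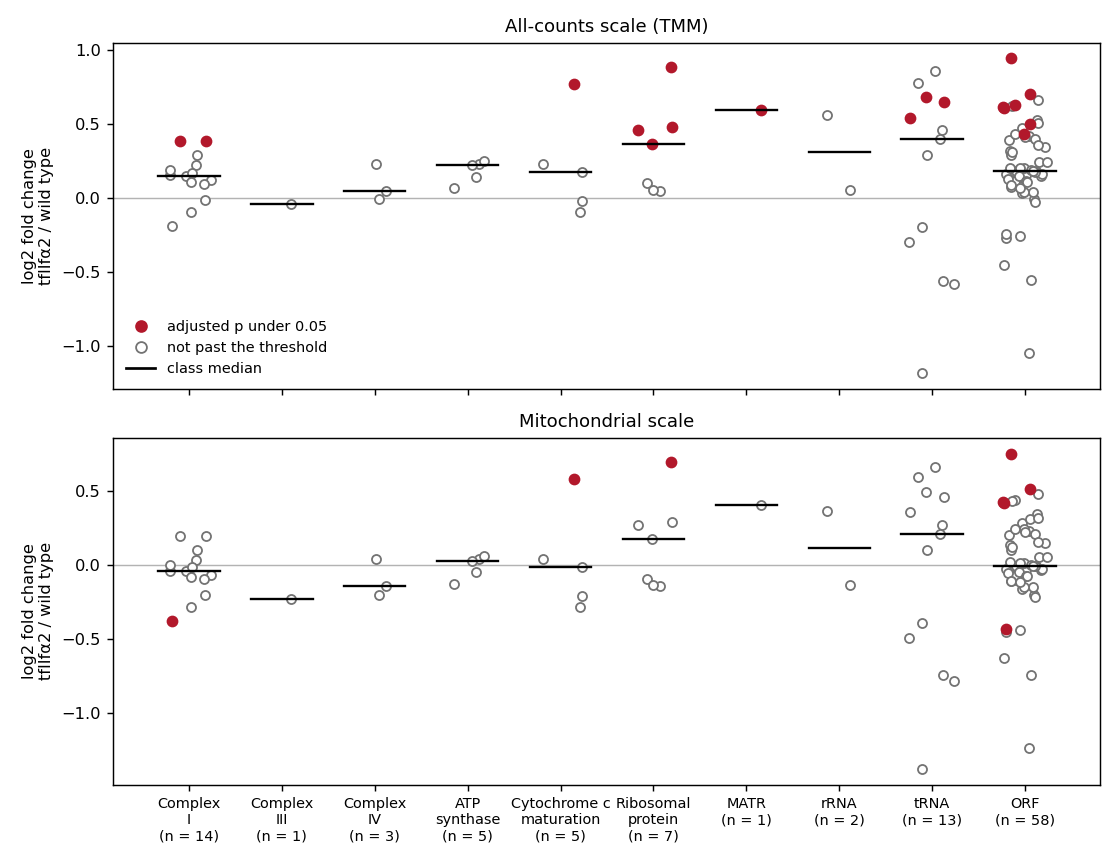
Log2 fold change of each of the 109 tested mitochondrial genes (tfIIfα2 over wild type) by class, on the all-counts scale (top) and the mitochondrial scale (bottom). Filled points passed an adjusted p of 0.05 in edgeR with the replicate block, bars are class medians, and the ribosomal protein median of 0.37 on the upper scale lies above the ORF median of 0.19.

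The genes for ribosomal proteins held the highest share of calls among the classes with more than 1 gene. All 7 had positive log2 fold changes on the all-counts scale, as did 89 of the 109 tested mitochondrial genes. On that scale 4 rose (57.1%), against 9.56% of all tested genes. Of these, the neighbours RPL16 and ATMG00090 may share reads and need not be separate calls. The class median was 0.37 on the all-counts scale and 0.18 on the mitochondrial scale, where 4 of the 7 were positive. ATMG00090 alone held 17659 of the 38716 class counts in replicate 1 of tfIIfα2, and 13796 of 30933 in replicate 1 of wild type. Their summed counts made up 7.70%, 7.75% and 8.16% of the mitochondrial counts in tfIIfα2, against 6.72%, 6.80% and 6.23% in wild type. The 3 mutant libraries all lay above the 3 wild-type libraries, with log2 ratios of 0.20, 0.19 and 0.39 in the 3 pairs.

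RPL2 (ATMG00560), which encodes protein L2 of the large ribosomal subunit, differed most of the 7. It stood at 110.1, 118.9 and 187.8 CPM in tfIIfα2, against 63.7, 86.4 and 70.4 CPM in wild type. The groups were apart, and replicate 3 of tfIIfα2 was the highest library. The rise was 1.85-fold (log2 fold change 0.89 ± 0.16 SE, adjusted p = 0.0086, edgeR), and 0.70 ± 0.20 (adjusted p = 0.039) on the mitochondrial scale. Without replicate 3 of each group it was 0.62 (adjusted p = 0.000632) on the all-counts scale and 0.39 (adjusted p = 0.0593) on the mitochondrial scale.

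RPL16 (ATMG00080), for protein L16 of the same subunit, had 235.4, 244.4 and 261.6 CPM in tfIIfα2, against 194.8, 176.6 and 203.7 CPM in wild type. Its identifier-order neighbour ATMG00090, which the deposited table describes as a structural constituent of the ribosome and gives no symbol, had 456.7, 477.7 and 505.2 CPM in tfIIfα2, against 346.5, 338.6 and 360.8 CPM in wild type. Both genes had no overlap between the groups on either scale. The log2 fold changes were 0.37 ± 0.10 for RPL16 (adjusted p = 0.0312) and 0.46 ± 0.10 for ATMG00090 (adjusted p = 0.0173, edgeR). In the TAIR10.1 annotation of RefSeq the spans of rpl16 and its neighbour rps3 overlap, so reads over the shared stretch cannot be assigned to 1 gene. RPS4 (ATMG00290), for a small-subunit protein, had 105.3, 101.9 and 90.6 CPM in tfIIfα2, against 76.2, 60.2 and 77.6 CPM in wild type (0.48 ± 0.11, adjusted p = 0.0199). These 3 genes passed without replicate 3 but not without replicate 1 or 2 (adjusted p from 0.0662 to 0.177).

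The other 3 ribosomal protein genes lay close to 0 on the all-counts scale. The log2 fold change was 0.05 ± 0.09 for RPL5, 0.06 ± 0.12 for RPS7 and 0.10 ± 0.08 for RPSL2, the symbol under which the table lists the gene for protein S12. The class was thus split: RPL2 counts were 1.69, 1.80 and 2.80 times those of RPL5 in the tfIIfα2 libraries, against 0.943, 1.54 and 1.02 times in the wild-type libraries.

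Cytochrome c maturation depends on a set of membrane proteins, of which plant mitochondria encode several under the Ccm names. Of the 5 genes 1 rose (20.0%), against 9.56% of all tested genes. This was CCB203 (ATMG00960), which RefSeq calls ccmFN2 and which encodes a part of the haem lyase. It had 19.7, 22.3 and 27.7 CPM in tfIIfα2, against 11.7, 15.7 and 13.3 CPM in wild type, with no overlap. The rise was 1.71-fold (log2 fold change 0.77 ± 0.11 SE, adjusted p = 0.00375, edgeR), and it was called on the mitochondrial scale as well (0.58 ± 0.14, adjusted p = 0.0241). On the all-counts scale it passed whichever replicate number was left out, but its adjusted p was 0.0506 without the block. On the mitochondrial scale its adjusted p was 0.136 without replicate 1 and 0.0549 without replicate 3.

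CCB382, or ccmFN1, encodes the partner fragment of the same lyase protein and did not move with CCB203. It had 23.8, 20.8 and 22.7 CPM in tfIIfα2, against 24.3, 22.4 and 24.9 CPM in wild type (-0.09 ± 0.08, adjusted p = 0.442). The ratio of CCB203 to CCB382 counts was 0.828, 1.07 and 1.22 in tfIIfα2, against 0.48, 0.70 and 0.531 in wild type, so every mutant library exceeded every wild-type library. CCB206 (ccmB) and CCB256 (ccmC) encode parts of a haem export complex. Their log2 fold changes were 0.24 ± 0.11 and -0.02 ± 0.09. CCB452 (ccmFC), for another lyase subunit, was at 0.18 ± 0.08, and none of these 3 passed (adjusted p of 0.161, 0.91 and 0.151, edgeR).

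Complex I, the NADH dehydrogenase that feeds electrons into the chain, is represented by 14 genes or gene pieces. The class median was 0.15 on the all-counts scale and -0.04 on the mitochondrial scale. On the first scale 2 members rose (14.3%), against 9.56% of all tested genes. NAD4L (ATMG00650), for a small membrane subunit, had 147.9, 146.6 and 145.6 CPM in tfIIfα2, against 107.9, 106.5 and 122.8 CPM in wild type (log2 fold change 0.39 ± 0.09 SE, adjusted p = 0.0223, edgeR). NAD2A (ATMG00285), the piece with the 5′ exons of nad2, had 87.6, 89.3 and 90.1 CPM in tfIIfα2, against 62.7, 64.8 and 77.5 CPM in wild type (0.39 ± 0.09, adjusted p = 0.021). The mutant libraries of both genes lay close together and above all wild-type libraries. Neither passed without replicate 1 (adjusted p of 0.206 and 0.19) or without replicate 2 (0.0777 and 0.0659).

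The complex I genes with the highest counts did not pass. NAD4 (ATMG00580) had 488.5, 496.2 and 476.6 CPM in tfIIfα2, against 492.0, 440.0 and 545.1 CPM in wild type (-0.01 ± 0.11, adjusted p = 0.963). NAD7 (ATMG00510), for a subunit of the matrix arm, was at 0.10 ± 0.11 (adjusted p = 0.552). The highest SE in the class was 0.35, for NAD5B, which had at most 17 counts per library, and the median SE was 0.10.

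The pieces of the split genes did not keep a constant ratio to one another. NAD1A (ATMG01275), the first piece of nad1, was called lower on the mitochondrial scale, with 2058, 1988 and 1971 mitochondrial CPM (counts scaled in the same way by the ATMG sum) in tfIIfα2, against 2813, 2582 and 2439 in wild type (log2 fold change -0.38 ± 0.09 SE, adjusted p = 0.0198, edgeR). On the all-counts scale it was at -0.19 ± 0.08 (adjusted p = 0.134), with no overlap in CPM. NAD1C (ATMG00516), the last piece, was at 0.29 ± 0.09 on the all-counts scale (adjusted p = 0.0623). NAD1C counts were 5.67, 5.76 and 5.18 times NAD1A counts in tfIIfα2, against 3.77, 4.05 and 4.08 times in wild type. Such a ratio within a library needs no library size, and it was higher in every mutant library, by 0.48 ± 0.13 on the log2 scale (mean and SD over the 3 pairs).

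The ratio of NAD1C to the middle piece NAD1B showed the same order, with 1.51, 1.44 and 1.60 in tfIIfα2, against 1.06, 1.21 and 1.24 in wild type. Between NAD1B and NAD1A the groups overlapped, at 3.75, 4.00 and 3.23 in tfIIfα2 and 3.57, 3.36 and 3.30 in wild type. For nad2, the ratio of NAD2A to NAD2B was 0.334, 0.329 and 0.359 in tfIIfα2, against 0.251, 0.299 and 0.296 in wild type, again higher in every mutant library. For nad5 the ratio of NAD5A to NAD5C overlapped between the groups, at 0.568, 0.602 and 0.557 in tfIIfα2 and 0.571, 0.543 and 0.533 in wild type. The ratios were chosen after the values had been seen and are given without a test. They show unequal change between pieces, and the gene counts used here do not separate spliced from unspliced RNA.

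**Figure D2:**
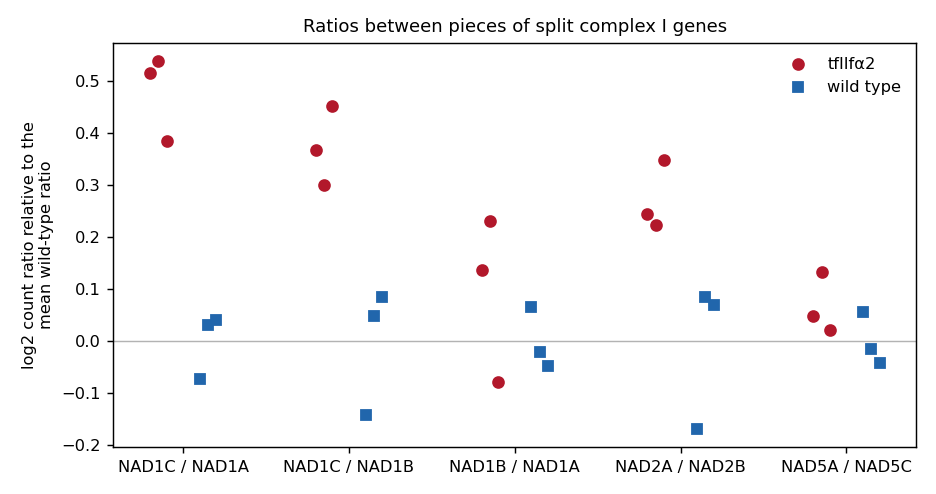
Ratio of counts between pieces of the split complex I genes nad1, nad2 and nad5 in each of the 3 tfIIfα2 and 3 wild-type libraries, as log2 relative to the mean wild-type ratio. The NAD1C to NAD1A, NAD1C to NAD1B and NAD2A to NAD2B ratios were higher in every tfIIfα2 library than in any wild-type library, and the other 2 ratios overlapped.

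No gene of complexes III and IV or of ATP synthase was called on either scale. They have 1, 3 and 5 tested genes, against 9.56% of all tested genes called higher on the all-counts scale. So few genes cannot set an absence of calls apart from that share. COB (ATMG00220), for cytochrome b of complex III, had 268.8, 274.5 and 252.3 CPM in tfIIfα2, against 292.5, 237.4 and 290.7 CPM in wild type (log2 fold change -0.04 ± 0.11 SE, adjusted p = 0.836, edgeR). The 3 mutant values of COB on the mitochondrial scale lay below the 3 wild-type values (-0.23 ± 0.11, adjusted p = 0.154). COX1 (ATMG01360), for the catalytic subunit of cytochrome c oxidase, had 1366, 1338 and 1413 CPM in tfIIfα2, against 1230, 1044 and 1239 CPM in wild type (0.23 ± 0.12, adjusted p = 0.209). Although the COX1 groups did not overlap, the difference did not pass. COX2 and COX3, for the other mitochondrial core subunits, were at -0.01 ± 0.11 and 0.05 ± 0.10 on the all-counts scale.

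All 5 ATP synthase genes had positive log2 fold changes on the all-counts scale, with a median of 0.22, and the median was 0.03 on the mitochondrial scale. ATP1 (ATMG01190), for the alpha subunit, had 919.6, 955.2 and 1110 CPM in tfIIfα2, against 806.6, 863.7 and 881.3 CPM in wild type (0.22 ± 0.12, adjusted p = 0.206). ATP9 (ATMG01080), for the ring subunit, was at 0.26 ± 0.12 (adjusted p = 0.172), and YMF19 (ATMG00480), for subunit 8, at 0.23 ± 0.09 (adjusted p = 0.111). In each of these 3 genes the mutant libraries lay above the wild-type ones in CPM and overlapped them on the mitochondrial scale. Such a gap in CPM was found for 36 of the 109 tested mitochondrial genes and 13.1% of all tested genes. ATP6-1 and ATP6-2 share sequence, so reads may be split between them. They were at 0.07 ± 0.11 and 0.15 ± 0.11.

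As a class, the 23 respiratory genes took 59.2%, 58.0% and 55.8% of the mitochondrial counts in tfIIfα2, against 61.0%, 58.7% and 57.7% in wild type. The share was lower in tfIIfα2 within each numbered pair, with log2 ratios of -0.04, -0.02 and -0.05, though the groups overlapped. Since shares sum to a whole, this fall and the rise of the ribosomal protein share are not independent.

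**Figure D3:**
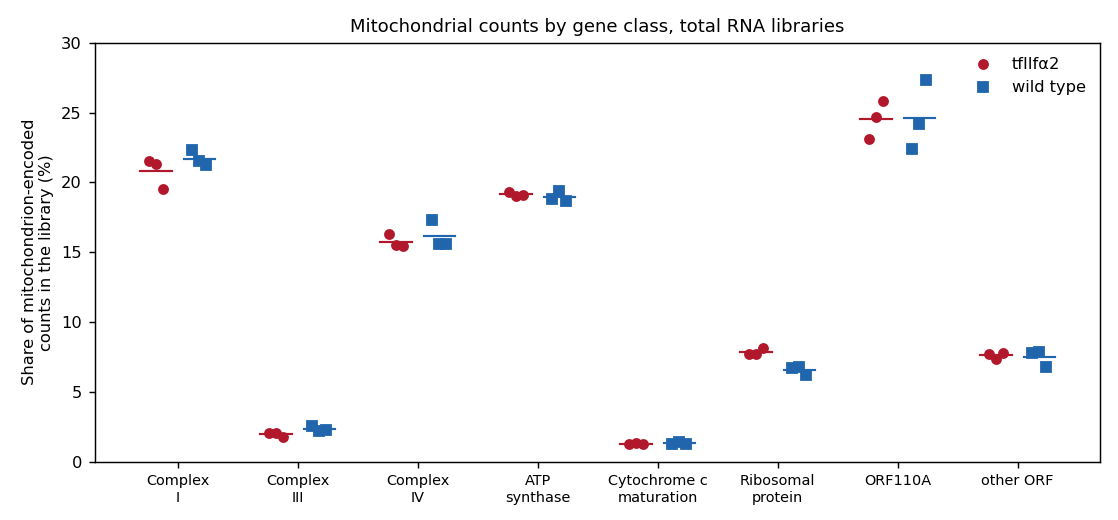
Share of the mitochondrion-encoded counts of each total RNA library that fell on each gene class, with ORF110A apart from the other ORF genes. Points are the 3 tfIIfα2 (circles) and 3 wild-type (squares) libraries and bars their means. Ribosomal protein genes took 7.70% to 8.16% in tfIIfα2 and 6.23% to 6.80% in wild type, and complex III also separated the groups, while the other classes overlapped.

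MATR (ATMG00520) encodes a maturase for group II introns and lies inside the last intron of nad1. It had 91.0, 96.7 and 125.8 CPM in tfIIfα2, against 63.1, 81.2 and 62.8 CPM in wild type. It rose 1.51-fold on the all-counts scale (log2 fold change 0.59 ± 0.13 SE, adjusted p = 0.019, edgeR), with replicate 3 of tfIIfα2 the highest library. It did not pass on the mitochondrial scale (0.40 ± 0.17, adjusted p = 0.114) and the groups overlapped. On the all-counts scale its adjusted p was 0.0656 without replicate 1, and its log2 fold change was 0.38 (adjusted p = 0.0118) without replicate 3. The ratio of MATR to NAD1C was 0.600, 0.631 and 0.883 in tfIIfα2 and 0.515, 0.711 and 0.486 in wild type, which overlapped.

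Of 13 tRNA genes tested, 3 rose on the all-counts scale (23.1%), against 9.56% of all tested genes. All 3 had a mean of less than 100 counts per library, and the class median was 0.40. TRNS.4, a serine tRNA gene, had 91, 84 and 99 counts in tfIIfα2, against 70, 60 and 53 counts in wild type (0.65 ± 0.17, adjusted p = 0.0312). TRNC, for a cysteine tRNA, had 134, 94 and 73 counts in tfIIfα2, against 100, 48 and 51 in wild type (0.69 ± 0.17, adjusted p = 0.0277). TRNC was the only one of the 18 called genes whose groups overlapped in CPM. TRNS.2, a serine tRNA gene like TRNS.4, was at 0.55 ± 0.16 (adjusted p = 0.0459). TRNS.2 and TRNS.4 lost their calls when any replicate number was left out and with DESeq2 (adjusted p of 0.264 and 0.147). Mature tRNAs are short and folded and enter such libraries poorly. The rRNA genes were the target of the depletion, and RRN26 and RRN18, with log2 fold changes of 0.57 ± 0.24 and 0.06 ± 0.11, did not pass (adjusted p of 0.132 and 0.752).

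Of 58 ORF genes tested, 7 rose (12.1%), close to the 9.56% of all tested genes called higher, and the class median was 0.19 on the all-counts scale. ORF145C (ATMG01350) had 9.65, 9.88 and 10.7 CPM in tfIIfα2, against 6.10, 6.87 and 6.74 CPM in wild type (log2 fold change 0.62 ± 0.09 SE, adjusted p = 0.00429, edgeR). ORF117 (ATMG00970) had 5.66, 5.93 and 6.39 CPM in tfIIfα2, against 4.02, 3.85 and 3.88 CPM in wild type (0.61 ± 0.11, adjusted p = 0.00914). In both genes the groups were apart, with the 3 libraries of each genotype close together. Both also passed on the all-counts scale without the block (adjusted p of 0.033 and 0.0372) and whichever replicate number was left out. With the block they passed on the mitochondrial scale (0.43 ± 0.11, adjusted p = 0.0267, and 0.42 ± 0.12, adjusted p = 0.0375). On that scale neither passed without the block (0.0799 and 0.09) or with DESeq2 (0.122 and 0.197). There ORF145C also lost its call without replicate 1 or 3, and ORF117 whichever replicate number was left out.

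ORF215B (ATMG00920) had 9.54, 8.18 and 6.62 CPM in tfIIfα2, against 5.60, 4.46 and 4.83 CPM in wild type (0.70 ± 0.12, adjusted p = 0.00571), and it passed on the mitochondrial scale (0.51 ± 0.11, adjusted p = 0.0156). ORF111D (ATMG01370), whose log2 fold change was the highest of the 18, had 169, 106 and 76 counts in tfIIfα2, against 64, 59 and 62 counts in wild type. In both genes replicate 1 of tfIIfα2 was the highest library and replicate 3 the lowest of the mutant. ORF111D was 1.93-fold higher (0.95 ± 0.21, adjusted p = 0.0174), and without replicate 1 of each group the value was 0.66 (adjusted p = 0.122). It also passed on the mitochondrial scale (0.75 ± 0.21, adjusted p = 0.0367), where it was 0.46 (adjusted p = 0.24) without replicate 1.

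ORF240A, ORF149 and ORF161 were called on the all-counts scale and not on the mitochondrial scale, with log2 fold changes of 0.50 ± 0.09 (adjusted p = 0.008), 0.63 ± 0.15 (adjusted p = 0.0221) and 0.44 ± 0.10 (adjusted p = 0.018, edgeR). ORF149 resembled RPL2 in its libraries, with 37.3, 37.9 and 56.8 CPM in tfIIfα2, against 27.4, 30.7 and 25.7 CPM in wild type. Without replicate 3 of each group its log2 fold change was 0.37 (adjusted p = 0.0127, edgeR). ORF199 (ATMG00370) was lower on the mitochondrial scale, with 1443, 1295 and 1143 mitochondrial CPM in tfIIfα2, against 1861, 1661 and 1703 in wild type (-0.43 ± 0.09, adjusted p = 0.0169). On the all-counts scale it was at -0.24 ± 0.10 (adjusted p = 0.117). ORF25 (ATMG00640), known to encode the ATP synthase subunit that RefSeq calls atp4, was at 0.12 ± 0.09 on that scale (adjusted p = 0.407).

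ORF110A (ATMG00280) alone received 23.1%, 24.7% and 25.8% of the mitochondrial counts in tfIIfα2, against 22.4%, 24.2% and 27.3% in wild type. The deposited table describes it as a Rubisco large chain, and the TAIR10.1 mitochondrial genome holds a stretch of 573 bases that matches the plastid gene rbcL at 97.2% identity. RBCL received 5929699, 5521819 and 6060948 counts in tfIIfα2, against 5139792, 5098439 and 5239817 counts in wild type (log2 fold change 0.25 ± 0.25 SE, adjusted p = 0.511, edgeR). Reads from that stretch and from rbcL are hard to tell apart, and how many ORF110A counts are plastid reads was not tested. ORF110A itself was at 0.19 ± 0.14 (adjusted p = 0.374), and leaving it out of the mitochondrial sum gave 6 genes higher and 3 lower on the mitochondrial scale.

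Known genes and ORF genes had similar medians. The 35 respiratory, ribosomal protein and cytochrome c maturation genes had a median of 0.16 (log2 fold change) on the all-counts scale and -0.04 on the mitochondrial scale, and 7 of them rose on the first (20.0%). For the ORF genes the medians were 0.19 and 0.00, with 7 of 58 higher. The ORF median minus that of the known genes was 0.03, and in the 3 pairs it was 0.00, -0.07 and 0.31 (SD 0.20), so the pairs did not share a sign. The ORF genes were mostly low. Among the 25 with a mean of at least 100 counts, 6 rose and the median was 0.21. Of the known genes at that depth, 7 of 34 rose. Among the 33 ORF genes below that depth, 1 rose and the median was 0.18. At any depth 9.56% of all tested genes were higher, and their share at each depth was not computed. The ORF share of the mitochondrial counts was 30.8%, 32.0% and 33.6% in tfIIfα2, against 30.2%, 32.0% and 34.1% in wild type.

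Precision differed between the classes with depth. The median SE of the log2 fold change was 0.10 for the 35 known genes and 0.21 for the ORF genes. The 10 genes with the highest mean count held 66.6% of the ATMG counts. On the all-counts scale 1 of these 10, ATMG00090, was called higher, near the 9.56% of all tested genes.

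Within the 18 called genes the libraries of a group did not rank alike. Replicate 3 of tfIIfα2 was the highest mutant library for 12 of them and replicate 1 for 6. RPL2, MATR, ORF149 and CCB203 were highest in replicate 3 of tfIIfα2, whereas RPS4, ORF161, ORF215B, ORF111D and TRNC were lowest there among the mutant libraries. The genes RPL2, CCB203, ORF117, ORF145C, ORF149 and ORF215B, passed on the all-counts scale whichever replicate number was left out. Without replicate 1 of each group 12 of the 18 lost their call, without replicate 2 it was 9 and without replicate 3 it was 2.

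**Figure D4:**
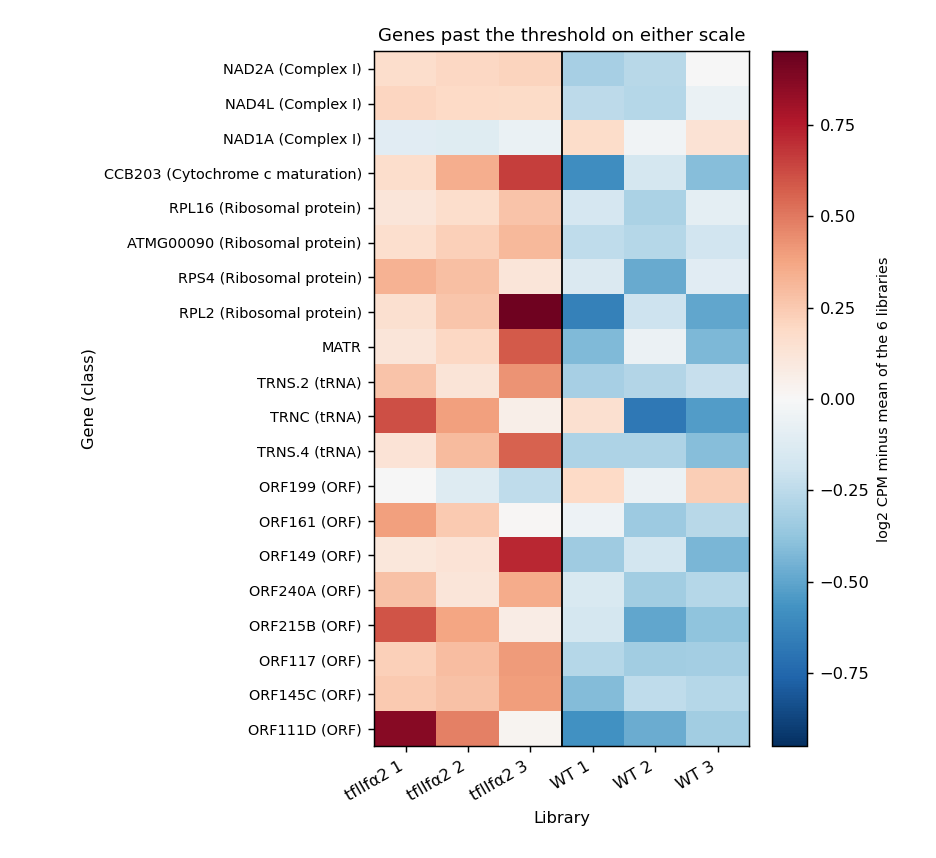
CPM of the 20 mitochondrial genes that passed on either scale, in each of the 3 tfIIfα2 and 3 wild-type libraries, as log2 relative to the mean of the 6 libraries. NAD1A and ORF199, the genes lower on the mitochondrial scale, run opposite to the rest, and RPL2, CCB203, MATR and ORF149 are strongest in replicate 3 of tfIIfα2.

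Some of the called genes are neighbours. In the order of the identifiers, RPL16 and ATMG00090, NAD2A and RPS4, NAD4L and ORF149, and CCB203 and ORF117 stand next to each other, which makes 4 pairs with 8 of the 18 genes. In RefSeq's annotation rpl16 and rps3 are adjacent, as are rps4 and nad2. Neighbours did not always share a change. ORF117 rose while RPSL2, next to it in identifier order, did not, and the ratio of ORF117 to RPSL2 counts was 0.277, 0.300 and 0.308 in tfIIfα2, against 0.208, 0.213 and 0.198 in wild type. ORF145C rose while COX1, next to it, did not pass, and their count ratio was 0.00706, 0.00739 and 0.00760 in tfIIfα2, against 0.00496, 0.00659 and 0.00544 in wild type.

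Mitochondrial sequence also lies in the nucleus, in an insertion on chromosome 2. In TAIR10.1, 72.6% of the mitochondrial genome matched chromosome 2 at 99% identity or more over at least 200 bases, and 23 of its 33 protein-coding genes were matched in full. The 145 chromosome 2 genes from AT2G07660 to AT2G07840 received 519234, 445002 and 490025 counts in tfIIfα2, against 476737, 404312 and 470969 counts in wild type, about as many as the ATMG genes. Reads from a gene and its near-identical copy cannot be told apart, so the counts and ratios given above for the matched genes, nad1, nad2, nad5, matR, rps4, rpl2 and both ccmFN genes among them, are uncertain. For 14 genes, a single row of the insertion carried the same symbol or description and was taken as the copy. Of the counts of both rows, 34.1% to 93.5% fell on the chromosome 2 row. The 93.5% was for ORF315, with 2054, 1701 and 1794 counts in tfIIfα2. Its paired row, AT2G07671, had 30208, 24371 and 25135 counts there, closer to the 31584, 25208 and 24636 of ATP9. Whether AT2G07671 is a copy of ORF315 was not tested.

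Among the genes of the insertion 110 were tested, of which 18 were higher and 0 lower on the all-counts scale, against 9.56% and 9.18% of all tested genes (edgeR, 31 with an unadjusted p under 0.05). The copy of RPL2, AT2G07715, rose by 0.49 ± 0.10 (adjusted p = 0.0145), and the 2 rows summed by 0.66 ± 0.13 (adjusted p = 0.0123, edgeR) on that scale. The sum of the RPL2 rows was at 0.48 on the mitochondrial scale and did not pass (adjusted p = 0.0665). The rows of ORF161 summed to a rise of 0.47 ± 0.08 (adjusted p = 0.00864), which also passed on the mitochondrial scale (0.28, adjusted p = 0.0498), and those of ORF199 to -0.40 on the mitochondrial scale (adjusted p = 0.0177). With each of the 14 pairs of rows summed, 18 mitochondrial genes were higher and 0 lower on the all-counts scale, the same 18 genes as before. Of these 18, only RPL2 and ORF161 had a summed pair. The rows of the others were unchanged, so this fit cannot show how copies bear on their calls. NAD4L, for which RefSeq's gene had no match on chromosome 2, was among the 18.

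Nuclear genes whose proteins make, process or degrade mitochondrial RNA were examined for comparison. Of 20 such genes, all tested, 0 were higher and 2 lower on the all-counts scale, against 9.56% and 9.18% of all tested genes, so the count of lower genes was near the background. The unadjusted p of nMAT3, TRZ4 and MTERF15, the smallest of the list, was 0.00279, 0.0081 and 0.0104. Of the 20, 15 had negative log2 fold changes, with a median of -0.11. Among all 18863 tested genes the median was 0, and 9441 had positive values. Whether the signs of the list depart from those of all tested genes was not tested. In nMAT3 (AT5G04050), for a nuclear-encoded intron maturase, the level was 1.73, 1.55 and 1.74 CPM in tfIIfα2, against 3.37, 2.17 and 2.61 CPM in wild type (log2 fold change -0.70 ± 0.17 SE, adjusted p = 0.0237, edgeR). TRZ4 (AT3G16260), for an enzyme that trims the 3′ ends of tRNAs, had 22.3, 21.8 and 18.1 CPM in tfIIfα2, against 29.4, 23.6 and 24.3 CPM in wild type (-0.32 ± 0.09, adjusted p = 0.0459). The groups were apart for both genes. Neither passed without the block (adjusted p of 0.0994 and 0.219), without replicate 1 (0.195 and 0.261) or with DESeq2 (0.143 and 0.212). MTERF15 (AT1G74120), of the mitochondrial termination factor family, was at -0.47 ± 0.14 (adjusted p = 0.0528). The polymerase genes RPOTM and RPOTMP were at -0.04 ± 0.10 and -0.10 ± 0.12 (adjusted p of 0.804 and 0.578).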

How the data were processed

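The values analysed were raw counts per gene, whole numbers deposited by the authors for 33602 genes with symbols and descriptions. Per the submitters' processing notes the genome build was TAIR10, and the tools listed are edgeR 3.20.1, Bowtie2 2.2.9 and FastQC 0.11.5, without their roles. The counting tool, its strand setting and its treatment of reads with several matches are not given in the sources used here. A further 8 count columns and 18 normalized columns of the deposited table were not used. Groups and replicate numbers came from the sample titles.

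Tests used edgeR 4.0.16 (R 4.3.3) with filterByExpr, replicate number plus genotype in the design, the quasi-likelihood test and Benjamini-Hochberg adjustment over 18863 genes. SEs were derived as the size of the log2 fold change divided by the root of the F statistic. Same-numbered libraries deviated together over all genes (r = 0.71, 0.26 and 0.60), each correlating best with its own number. Over the mitochondrial genes on the mitochondrial scale r was -0.02, -0.11 and -0.10. The biological coefficient of variation was 0.101 with the block and 0.184 without. The procedure was tested on simulated data. Alternatives included DESeq2 1.42.0 and limma 3.58.1 (voom). Matches to chromosome 2 were found with blastn 2.17.0 in TAIR10.1, which is not the authors' build, so no coordinates are given.

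The genes, lists and classes were chosen with earlier results of these data known. Named genes were those called without the block, for each class the 2 with the smallest p and the 2 with the highest mean count, all cytochrome c maturation, complex III and complex IV genes, RAP74, and the 3 nuclear genes with the smallest p. All other genes named, among them RPS4, TRNS.2, ORF111D, ORF149, ORF161, ORF240A, ORF199, NAD1A, CASP1 and the gene pieces, were chosen after their values were seen.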

Additional observations from a re-analysis of the deposited data

How the results depend on the processing

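The 18 calls on the all-counts scale became 2 with no replicate block, where 1.48% of all tested genes were higher, and 6 at an adjusted p of 0.01. They ranged from 8 to 19 when the libraries of 1 replicate number were left out. The 8 came without replicate 1 and comprised 6 higher and 2 lower genes (ORF131 and TRNS.1, both at low counts), and without replicate 2 there were 11. The 8 calls on the mitochondrial scale became 0 with no replicate block (13 with an unadjusted p under 0.05, adjusted p of the 8 from 0.0799 to 0.124), 2 with DESeq2 and the block, and 0 at an adjusted p of 0.01 (21 unadjusted). They ranged from 0 to 11 when 1 replicate number was left out. The 0 came without replicate 1 (12 unadjusted, adjusted p of the 8 from 0.111 to 0.24). Whether the numbers mark shared growth or handling is not stated in the labels, so the larger counts rest on pairing libraries by the numbers in their titles. The cause of these differences was not tested. Apart from the fits without the block, the share of all tested genes called was not computed under these settings. Whether mitochondrial calls fell more than those of other genes is therefore not known. With RLE factors, nuclear scaling, no count filter, a filter of 1 CPM in 3 libraries, voom, or plastid genes removed, the all-counts calls stayed at 18, and DESeq2 with the block made 14. The median difference between ORF and known genes ranged from -0.10 to 0.15 and the log2 ratio of the mitochondrial share from 0.03 to 0.11 when 1 replicate number was left out. Of the values for single genes under the alternatives, 1292 stayed on their side of the threshold, 118 lost and 16 gained a call, and 0 called values changed sign. Most of the 1292 belong to genes that were not called in the main fits and had no call to lose. The tally therefore does not measure how stable the calls were. Low counts limit the tRNA and most ORF genes.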

Other observations

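The mRNA libraries of the same series, made with a stranded mRNA kit, held few mitochondrial counts. A tfIIfα1 library had 327 counts on ATMG genes, and the 3 libraries of the wild type sequenced with it had 195, 286 and 224. At this depth single mitochondrial genes could not be compared there. In those libraries the chromosome 2 insertion received 4839 counts in tfIIfα1 and 4389, 3906 and 4460 in the wild type, many more than the ATMG genes, whereas in the total RNA libraries both received similar numbers.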
